A study of Mus musculus with 6 samples.

Results

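The genes described here are 32 genes of cholesterol handling: 19 enzymes of synthesis, 5 genes of control by the sterol regulatory element binding proteins (SREBP), 4 genes of sterol uptake and transport inside the cell, and 4 genes linked to efflux through the liver X receptors (LXR). They were taken by symbol from a list of pathway members. The list was chosen with earlier results of these data known and does not hold the whole pathway. All 32 were found among the 32903 gene symbols to which the deposited transcripts could be assigned, and all 32 were among the 12520 genes tested. The cells were MuTuDC1940, an established mouse line that resembles type 1 conventional dendritic cells, and every library came from this 1 line. Treated cells received poly(I:C), a synthetic mimic of viral RNA, at 5 µg/ml for 18 hours; control cells were left untreated. The labels name 3 samples per group. Of the 6 value columns in the table, the columns headed PolyIC01 and PolyIC02 for treated cells and NT01 and NT02 for untreated cells could be placed in a group and were used.

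Cells make cholesterol from acetyl-CoA through mevalonate, squalene and lanosterol. When sterol in the membrane of the endoplasmic reticulum is low, the escort protein SCAP carries SREBP to the Golgi for cleavage, and the released factor switches on synthesis genes; INSIG proteins hold SCAP back when sterol is plentiful. Oxysterols and late sterol intermediates switch on LXR, which drives export of cholesterol through ABC transporters. In dendritic cells and macrophages, type I interferon signalling is known to alter this balance, and sterol content bears on membrane order and on phagosome and lysosome function.

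Values are TPM (transcript abundance scaled to a fixed library total), summed over the RefSeq transcripts of a gene. TPM is also scaled by transcript length, so levels of different genes can be compared, but it keeps no sequencing depth and no counting interval can be given. Rose and fell are used only where limma gave an adjusted p under 0.05, adjusted over all 12520 tested genes. Fold changes from the fit are log2 differences on the log2(TPM + 1) scale. Whether libraries of 1 group came from separate cultures is not in the labels, so each p reflects no more than the variation among these 4 libraries, which could be technical. With 2 libraries per group, an exact two-sided permutation test cannot go below 0.333.

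Markers of the labelled cell type were present but did not move together. Of 10 type 1 markers all were tested, of which 5 rose, 4 fell and 1 did not pass. For this and the other check lists, the shares over all tested genes were 28.4% that rose and 32.4% that fell. The type 1 markers Irf8 (2558 and 2639 TPM with poly(I:C), 2482 and 2477 TPM untreated), Xcr1 and Clec9a were abundant and rose, while Itgae was under 1 TPM in all 4 libraries. The 4 that fell were Cd24a (141 and 144 TPM with poly(I:C), 383 and 381 TPM untreated), Tlr3 (136 and 151 TPM with poly(I:C), 261 and 245 TPM untreated), Flt3 (5.62 and 5.00 TPM with poly(I:C), 9.13 and 9.91 TPM untreated) and Batf3 (114 and 120 TPM with poly(I:C), 145 and 143 TPM untreated). Of 8 B and T cell genes 2 were tested and both rose, Ms4a1 (6.74 and 5.76 TPM with poly(I:C), 3.18 and 3.58 TPM untreated) and Cd3d (1.59 and 1.47 TPM with poly(I:C), 1.01 and 0.678 TPM untreated), while Cd3e and Cd3g were listed at 0. All 11 interferon-stimulated genes of a check list rose at least 2-fold, of which Irf7 reached the limit of testing, a mean of 0.5 TPM over the 4 libraries, only through the treated ones. Of 14 proliferation genes 13 fell, and their summed level was 1869 and 1875 TPM with poly(I:C) against 3000 and 2982 TPM untreated. Of 12 macrophage and monocyte markers 10 were tested, of which 7 rose, 1 fell and 2 did not pass; of those that rose, Fcgr1 was tested only through the treated libraries. The sum of the 12 was 878 and 901 TPM with poly(I:C) against 583 and 577 TPM untreated, while Mertk was at most 0.0387 TPM and Csf1r was listed at 0 in both treated libraries, against 0.272 and 0.469 TPM untreated. The part of these shifts in the sterol results was not tested. In bulk RNA, a change in every cell and a change in the number of cells that express a gene cannot be told apart.

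Poly(I:C) moved the sterol genes in both directions and mostly by small amounts. Of the 32 genes, 15 rose (46.9%), 6 fell (18.8%) and 11 did not pass. Over all tested genes 28.4% rose and 32.4% fell, and whether the shares differ was not tested. The count of 15 includes Nr1h3, which reached the limit of testing only through the treated libraries, and is 14 of 31 without it. The treated and untreated libraries did not overlap for 26 of the 32, against 81.3% of all tested genes. The median log2 fold change of the 32 was 0.04, beside -0.02 over all tested genes, and the median size of change was 0.23, beside 0.27. Only Npc2 changed at least 2-fold in the fit, a size reached by 8.57% of tested genes. Replicates were close: the SD was under 10% of the mean in both groups for 30 of the 32 genes, the exceptions being Dhcr7 and Srebf1.

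**Figure D1:**
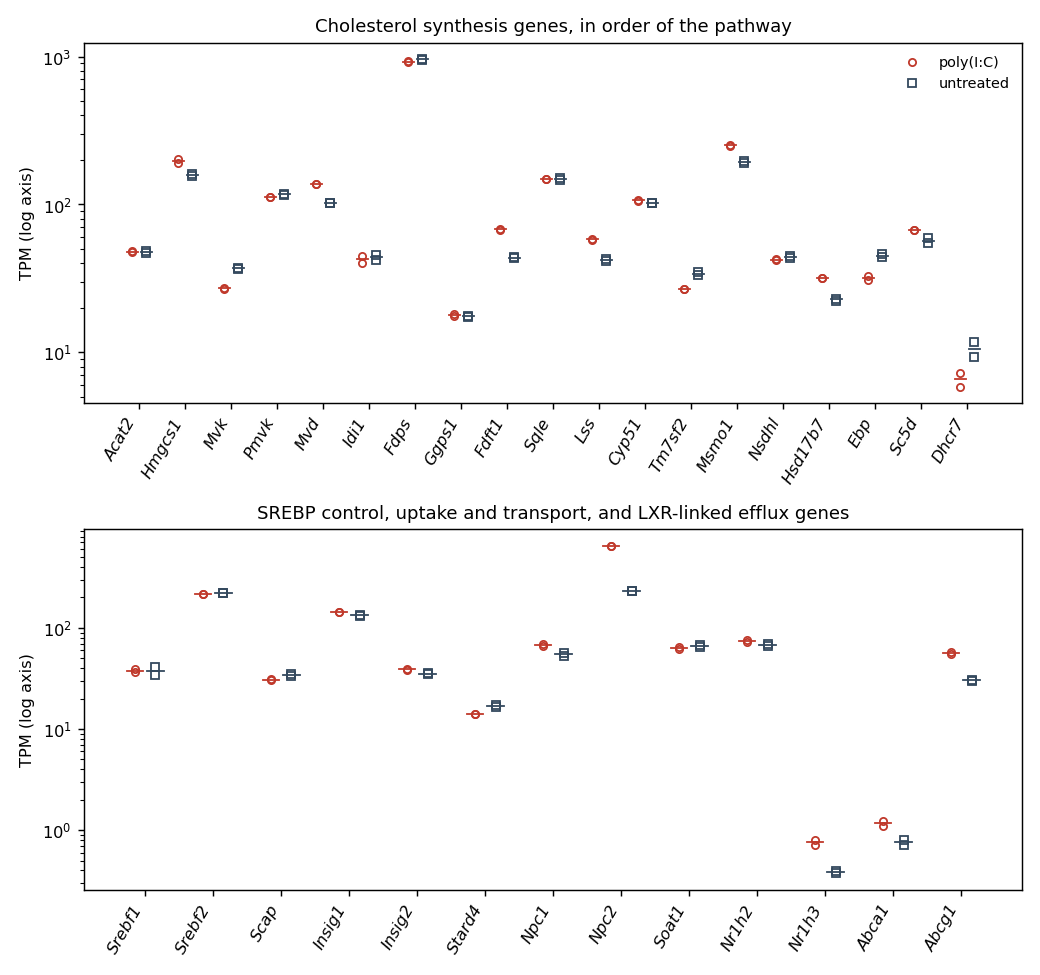
TPM (log axis) of each of the 32 genes in the 2 poly(I:C) libraries (circles, left of each pair) and the 2 untreated libraries (squares), with short lines at the group means. Npc2 has the largest ratio of group means, 2.78, followed by Nr1h3 with 1.97 and Abcg1 with 1.86; Fdps is the most abundant gene, and Nr1h3 and Abca1 lie near 1 TPM.

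The 32 genes together summed to 3752 and 3726 TPM with poly(I:C), against 3155 and 3154 TPM untreated. Of the mean gain of 584 TPM, Npc2 alone supplied 413 TPM, or 70.6%. Without Npc2 the sums were 3104 and 3085 TPM with poly(I:C) against 2922 and 2924 TPM untreated. The 19 synthesis genes gained 122 TPM, summing to 2352 and 2342 TPM with poly(I:C) against 2222 and 2227 TPM untreated.

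The upstream sequences of 5 genes are shown because these genes carry the changes in both directions and hold the motif letters described later. Each runs from 250 to 41 bases before the RefSeq start of the gene (GRCm38.p6), 5′ to 3′ on the strand of the gene, and was taken from RefSeq. Capitals mark CCAAT or its complement ATTGG, the sterol response element letters TCACNCCAC, and the interferon response letters GAAANNGAA. Hmgcs1 (chr13:119690101-119690310, plus strand), Lss (chr10:76531355-76531564, plus strand) and Npc2 (chr12:84773153-84773362, minus strand) rose, whereas Mvk (chr5:114444019-114444228, plus strand) and Ebp (chrX:8193553-8193762, minus strand) fell.
Hmgcs1: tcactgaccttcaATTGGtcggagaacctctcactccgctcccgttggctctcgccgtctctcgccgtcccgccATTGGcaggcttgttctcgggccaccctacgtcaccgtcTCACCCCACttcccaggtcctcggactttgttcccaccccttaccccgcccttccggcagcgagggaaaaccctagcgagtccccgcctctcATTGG
Lss: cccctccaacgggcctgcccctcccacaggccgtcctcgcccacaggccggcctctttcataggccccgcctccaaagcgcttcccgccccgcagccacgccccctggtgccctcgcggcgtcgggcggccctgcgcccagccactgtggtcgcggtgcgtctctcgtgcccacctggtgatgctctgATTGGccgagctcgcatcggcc
Npc2: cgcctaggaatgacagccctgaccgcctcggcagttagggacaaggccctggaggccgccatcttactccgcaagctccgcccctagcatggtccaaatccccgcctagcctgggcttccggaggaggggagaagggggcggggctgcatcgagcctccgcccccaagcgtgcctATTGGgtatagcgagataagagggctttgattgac
Mvk: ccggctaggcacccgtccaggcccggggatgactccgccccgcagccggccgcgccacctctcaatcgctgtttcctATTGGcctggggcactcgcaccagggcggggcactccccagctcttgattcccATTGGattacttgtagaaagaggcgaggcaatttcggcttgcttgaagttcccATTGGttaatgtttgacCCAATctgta
Ebp: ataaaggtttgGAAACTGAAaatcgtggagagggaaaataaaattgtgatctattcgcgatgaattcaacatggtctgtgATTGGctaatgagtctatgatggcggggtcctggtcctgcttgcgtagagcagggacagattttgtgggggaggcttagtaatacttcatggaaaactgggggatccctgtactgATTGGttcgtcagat

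Of the 32 genes, 26 had at least 1 window in the RefSeq promoter table, which covers 250 bases before to 50 bases after a start. Searched on both strands, CCAAT was in at least 1 window of 21 of these 26 genes and of 15 of the 16 synthesis genes with a window; Acat2 was the exception. The same letters were in a window of 43.3% of the 10011 tested genes with one, and in 37.4% of all windows of this length. CCAAT is bound by NF-Y, a known partner of SREBP at sterol genes. The sterol response element letters TCACNCCAC were found in Hmgcs1 alone, 137 bases before its start, and in 1.37% of tested genes. The interferon letters were in Ebp and Ggps1, 2 of 26 genes, and in 9.07% of tested genes. No site of one motif overlapped a site of another in these windows. CCAAT was present in genes that rose, genes that fell and genes that did not pass. A match is a description of the sequence and not of binding. Only these letters were searched, so a gene without a match may still hold a variant of an element or 1 outside the window. Fdps, Fdft1, Sqle, Stard4, Npc1 and Abcg1 had no window and were not searched.

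In the mevalonate stretch, 2 enzymes rose and 1 fell. Mvd, which decarboxylates mevalonate diphosphate, was at 137 and 138 TPM with poly(I:C) and 102 and 102 TPM untreated. Its log2 fold change was 0.43 (SE 0.03, adjusted p = 7.3e-05). Hmgcs1, which makes HMG-CoA, was at 204 and 192 TPM with poly(I:C) and 160 and 155 TPM untreated (log2 fold change 0.33, SE 0.04, adjusted p = 0.000775). Both genes were higher in each treated library than in either untreated one. The groups did not overlap for 81.3% of all tested genes. Mvk, the mevalonate kinase, went the other way, at 27.2 and 27.0 TPM with poly(I:C) against 36.5 and 37.4 TPM untreated. Its log2 fold change was -0.43 (SE 0.04, adjusted p = 0.000407). The remaining enzymes of this stretch did not pass. Acat2, the thiolase that begins it and that has a close copy in mouse, averaged 47.9 ± 0.538 TPM with poly(I:C) and 47.9 ± 1.26 TPM untreated (SD, n = 2 each). Its 95% interval of fold change ran from 0.935 to 1.07. Pmvk, the next kinase after Mvk, had an interval from 0.917 to 1.01, and the isomerase Idi1 one from 0.867 to 1.10.

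The calls of Hmgcs1 and Mvk were made on the sum over all transcripts and were not kept with curated transcripts alone. That setting depends on how TPM was divided between transcripts. In Hmgcs1 a single predicted transcript held most of the gene, at 183 and 170 TPM with poly(I:C) against 137 and 135 TPM untreated. The curated transcripts held 10.2% and 11.6% of the gene's TPM in treated libraries and 14.1% and 13.3% in untreated ones. Summed over curated transcripts only, the log2 fold change of Hmgcs1 was 0.00 (adjusted p = 0.974). For Mvk it was 0.07 (adjusted p = 0.441). The predicted transcripts of Mvk summed to 12.0 and 11.8 TPM with poly(I:C) against 22.8 and 22.2 TPM untreated, and its curated ones to 15.2 and 15.2 TPM with poly(I:C) against 13.7 and 15.2 TPM untreated. Whether TPM was divided correctly between the transcripts of a gene was not tested.

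**Figure D2:**
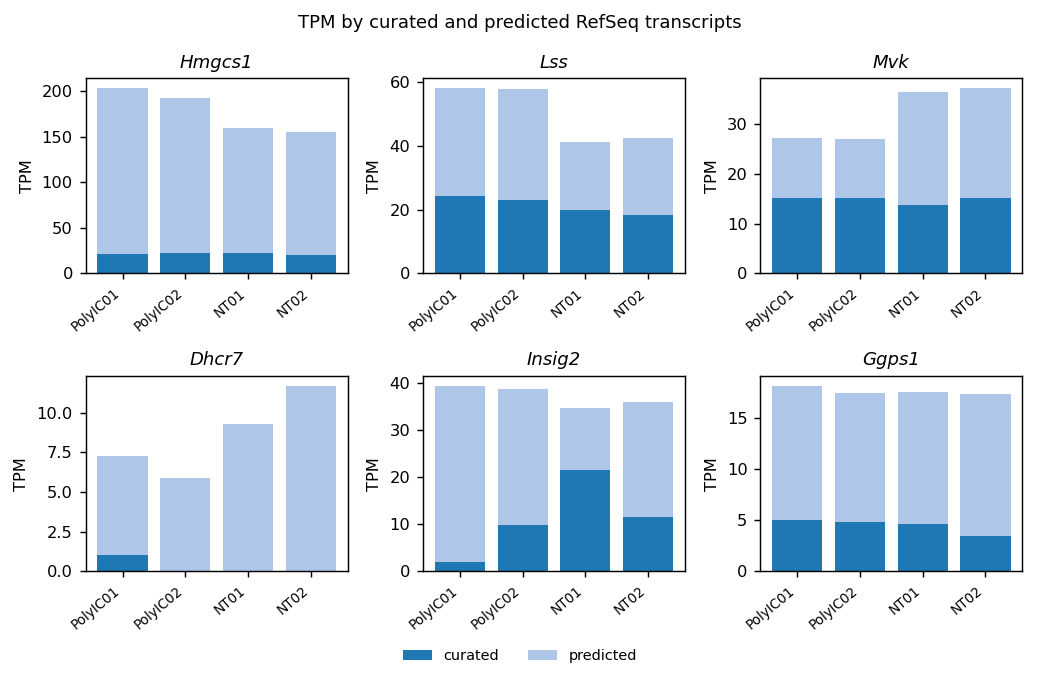
TPM in each library for 6 genes, divided into curated RefSeq transcripts (dark) and predicted ones (light), with poly(I:C) libraries left of untreated ones. The predicted share dominates Hmgcs1, Dhcr7 and Ggps1 and is also the larger share of Lss in every library. The curated share of Insig2 varies between libraries of 1 group.

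Neither gene at the branch to isoprenoids passed the test. Fdps, which makes farnesyl diphosphate for sterols and for protein prenylation, was the most abundant gene of the list. It was at 922 and 930 TPM with poly(I:C) and 953 and 962 TPM untreated, and made up 43.0% of the summed level of the synthesis genes in untreated cells. Its groups did not overlap, but the log2 difference of -0.05 (SE 0.02) had an adjusted p of 0.101, with a fold interval from 0.932 to 1.00. Ggps1, which extends farnesyl to geranylgeranyl diphosphate, was at 18.2 and 17.5 TPM with poly(I:C) and 17.6 and 17.4 TPM untreated, with overlapping groups. Its curated transcripts held 20.1% to 27.8% of its TPM. Summed over these only, its log2 fold change was 0.24 (adjusted p = 0.190).

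At the commitment to sterols, Fdft1 rose most of all synthesis genes. This gene encodes squalene synthase, which joins farnesyl units into squalene. It was at 68.6 and 67.5 TPM with poly(I:C) and 44.2 and 43.3 TPM untreated, 1.56-fold by means (log2 fold change 0.63, SE 0.04, adjusted p = 5.11e-05). Lss, which closes the rings to form lanosterol, was at 58.2 and 57.9 TPM with poly(I:C) and 41.3 and 42.5 TPM untreated, 1.39-fold (log2 fold change 0.46, SE 0.04, adjusted p = 0.000197). Between these steps stands Sqle, the squalene epoxidase and a known rate-limiting enzyme, which was at 148 and 148 TPM with poly(I:C) and 147 and 150 TPM untreated. The untreated libraries of Sqle enclosed the treated ones, and its fold interval was 0.951 to 1.04. Summed over curated transcripts only, the log2 fold change of Lss was 0.29 (adjusted p = 0.0179). These transcripts held 39.8% to 48.4% of the TPM of Lss.

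After lanosterol, 3 genes rose and 3 fell. Msmo1 and Hsd17b7 encode 2 of the 3 enzymes of a complex that strips methyl groups from the sterol ring, and both rose. Msmo1 was at 253 and 250 TPM with poly(I:C) against 197 and 192 TPM untreated (log2 fold change 0.37, SE 0.03, adjusted p = 0.000139). Hsd17b7 was at 31.6 and 31.8 TPM with poly(I:C) against 23.1 and 22.4 TPM untreated (log2 fold change 0.46, SE 0.05, adjusted p = 0.000431). Nsdhl, the remaining enzyme of that complex, did not pass, at 42.8 and 41.8 TPM with poly(I:C) against 43.7 and 44.9 TPM untreated, with a fold interval from 0.893 to 1.02. Sc5d, a desaturase of a late step, was at 66.8 and 66.8 TPM with poly(I:C) against 59.0 and 54.9 TPM untreated (log2 fold change 0.23, SE 0.04, adjusted p = 0.00672). Cyp51, the lanosterol demethylase, averaged 107 ± 0.202 TPM with poly(I:C) and 103 ± 0.803 TPM untreated and did not pass (adjusted p = 0.170).

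The falls after lanosterol were in an isomerase and in reductases. Ebp, the sterol isomerase, was at 30.9 and 32.6 TPM with poly(I:C) and 44.3 and 46.0 TPM untreated (log2 fold change -0.50, SE 0.05, adjusted p = 0.000377). Tm7sf2, a sterol reductase, was at 26.7 and 26.8 TPM with poly(I:C) and 34.9 and 33.2 TPM untreated (log2 fold change -0.34, SE 0.05, adjusted p = 0.0017). Neither gene's groups overlapped, as for 81.3% of all tested genes, and each has a single transcript in the table. Dhcr7, whose enzyme converts 7-dehydrocholesterol to cholesterol, was at 7.27 and 5.86 TPM with poly(I:C) and 9.27 and 11.7 TPM untreated (log2 fold change -0.60, SE 0.14, adjusted p = 0.0135). Its libraries varied most of the list, with an SD of 15.2% of the mean in treated and 16.4% in untreated cells. The curated transcript of Dhcr7 was listed at 0 in both untreated libraries, and at 1.04 TPM in PolyIC01, 14.3% of the gene there. In PolyIC02 and in both untreated libraries nearly all of the level was in predicted transcripts. Over the 19 synthesis genes the counts were 7 that rose, 4 that fell and 8 that did neither, and the median log2 difference was 0.00. The shares over all tested genes were 28.4% that rose and 32.4% that fell. Whether the synthesis genes differ from these shares was not tested.

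**Figure D3:**
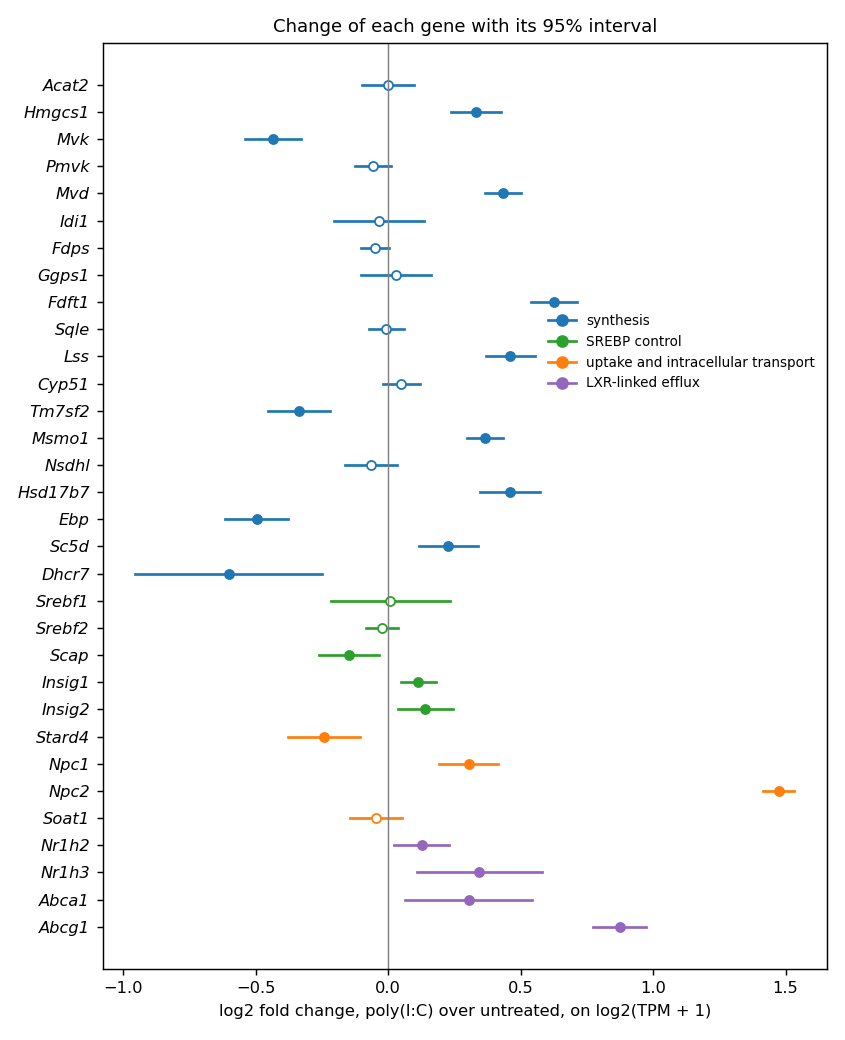
Log2 fold change of each gene, poly(I:C) over untreated, with its 95% interval from limma; filled points passed an adjusted p under 0.05 and open points did not. Npc2 at 1.47 and Abcg1 at 0.87 lie farthest right, and Dhcr7, Ebp and Mvk farthest left.

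The genes that control SREBP moved little. Srebf2, whose product is the main activator of cholesterol genes, was at 218 and 218 TPM with poly(I:C) and 220 and 223 TPM untreated, with a fold interval from 0.943 to 1.03. Srebf1, whose product acts more on fatty acid genes, was at 36.5 and 38.8 TPM with poly(I:C) and 34.2 and 40.8 TPM untreated. Its untreated libraries enclosed the treated ones, and its fold interval was wider, from 0.862 to 1.18. Within Srebf1, the less abundant of the curated transcripts was at 5.79 and 4.63 TPM with poly(I:C) against 2.66 and 2.58 TPM untreated. The more abundant was at 26.3 and 29.9 TPM with poly(I:C) against 27.3 and 35.1 TPM untreated. The transcripts were not tested separately.

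Of the genes that hold or escort SREBP, Insig1 and Insig2 rose and Scap fell, all by small amounts. Insig1, itself a known SREBP target, was at 144 and 144 TPM with poly(I:C) against 133 and 132 TPM untreated, 1.08-fold (log2 fold change 0.11, SE 0.03, adjusted p = 0.0122). Insig2 was at 39.5 and 38.7 TPM with poly(I:C) against 34.7 and 36.0 TPM untreated (log2 fold change 0.14, SE 0.04, adjusted p = 0.0311). Scap was at 30.5 and 31.1 TPM with poly(I:C) against 34.9 and 33.5 TPM untreated (log2 fold change -0.15, SE 0.04, adjusted p = 0.0336). These calls were lost with 1 library fewer, while the log2 fold changes kept their direction, at 0.11 to 0.12 for Insig1, 0.12 to 0.16 for Insig2 and -0.18 to -0.12 for Scap. Without PolyIC01 or PolyIC02 the adjusted p was 0.0632 or 0.0553 for Insig1, 0.160 or 0.0969 for Insig2 and 0.161 or 0.101 for Scap. Without NT01 it was 0.111 for Insig2 and 0.127 for Scap. With curated transcripts only, Insig2 turned to -1.57 (adjusted p = 0.124), where its curated share was 5.0% and 25.3% in treated libraries and 61.8% and 32.3% in untreated ones.

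The largest change of the 32 genes was in Npc2, which encodes the soluble lysosomal protein that picks cholesterol from internal membranes and hands it to NPC1. Npc2 was at 648 and 641 TPM with poly(I:C) against 233 and 230 TPM untreated, 2.78-fold by means (log2 fold change 1.47, SE 0.02, adjusted p = 1.09e-06). It was the 360th largest rise among the tested genes that rose. Its partner Npc1, the transporter in the lysosomal membrane, was at 69.3 and 66.4 TPM with poly(I:C) against 56.4 and 53.2 TPM untreated (log2 fold change 0.30, SE 0.04, adjusted p = 0.00222). The level of Npc2 was 9.35 and 9.65 times that of Npc1 in treated libraries, against 4.14 and 4.32 times in untreated ones. Both genes rose in every fit that left out a library.

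The other transport genes showed a small fall and no detectable change. Stard4, a soluble carrier that moves sterol between membranes, was at 14.1 and 14.1 TPM with poly(I:C) against 17.2 and 16.5 TPM untreated (log2 fold change -0.24, SE 0.05, adjusted p = 0.0112). Its call was lost without PolyIC01 (adjusted p = 0.0605) and without PolyIC02 (adjusted p = 0.0591), with the log2 fold change at -0.24 in both fits. Soat1, which esterifies cholesterol for storage, was at 64.8 and 62.5 TPM with poly(I:C) against 67.0 and 64.3 TPM untreated, with overlapping groups and a fold interval from 0.906 to 1.04.

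Of the 4 genes linked to LXR, Abcg1, Nr1h2 and Abca1 rose, as did Nr1h3, which was tested only through the treated libraries. Over all tested genes 28.4% rose and 32.4% fell, and whether the LXR genes differ from these shares was not tested. Only Abcg1 passed under each setting tried. Abcg1, an exporter of cholesterol to lipoprotein particles, was at 57.2 and 55.4 TPM with poly(I:C) against 30.1 and 30.4 TPM untreated, 1.86-fold (log2 fold change 0.87, SE 0.04, adjusted p = 2.44e-05). It has 1 transcript in the table. Nr1h2, which encodes LXR beta, was the abundant receptor, at 76.2 and 73.2 TPM with poly(I:C) against 70.1 and 66.5 TPM untreated (log2 fold change 0.13, SE 0.04, adjusted p = 0.0416). Nr1h3, which encodes LXR alpha, was near the limit of testing, at 0.716 and 0.799 TPM with poly(I:C) against 0.393 and 0.374 TPM untreated (log2 fold change 0.34, SE 0.09, adjusted p = 0.0228). Its untreated mean lay under the limit of 0.5 TPM, so it had to differ to be tested. Abca1, which loads cholesterol on apolipoproteins, was at 1.24 and 1.11 TPM with poly(I:C) against 0.711 and 0.805 TPM untreated (log2 fold change 0.30, SE 0.10, adjusted p = 0.0377). Abcg1 stood at 46.2 and 50.1 times the level of Abca1 in treated libraries, against 42.3 and 37.8 times in untreated ones. This ratio rests on the low level of Abca1, whose SD was 7.93% of the mean in treated and 8.78% in untreated libraries. Whether the ratio differs between groups was not tested.

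The calls of Nr1h2, Nr1h3 and Abca1 were lost with 1 library fewer, while their log2 fold changes stayed at 0.09 to 0.16, 0.33 to 0.38 and 0.26 to 0.35 in that order. For Nr1h2 the adjusted p was 0.153 without NT02, 0.190 without PolyIC01 and 0.0569 without PolyIC02. For Nr1h3 it was 0.0538 without NT01, 0.0698 without NT02 and 0.0786 without PolyIC01, and without PolyIC02 the gene fell under the limit of testing. For Abca1 it ranged from 0.0607 to 0.197 over the 4 fits that each left out 1 library. Macrophage markers also shifted, though not all in 1 direction. The complement gene C1qb was at 122 and 127 TPM with poly(I:C) against 12.8 and 11.8 TPM untreated. Ms4a7 was at 94.9 and 89.6 TPM with poly(I:C) against 10.3 and 9.19 TPM untreated. The 1 marker that fell was Lyz2, at 98.9 and 107 TPM with poly(I:C) against 218 and 217 TPM untreated. Cd68 and Adgre1 did not pass. The part of the marker shifts in the rises of Npc2 and of the LXR genes was not tested.

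In order of untreated level, the 32 genes ran from Fdps through Npc2, Srebf2, Msmo1 and Hmgcs1 down to Dhcr7, Abca1 and Nr1h3. Srebf2 and Npc2 stood next to each other in untreated cells, at means of 221 ± 1.56 and 231 ± 2.74 TPM (SD, n = 2). With poly(I:C) they stood at 218 ± 0.391 and 644 ± 4.84 TPM. Ebp, Nsdhl, Idi1 and Fdft1 lay close together in untreated cells, at means of 45.1, 44.3, 43.8 and 43.7 TPM, and the neighbouring pairs differed by less than the larger SD of the pair.

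Lists of other lipid genes, chosen with earlier results of these data known, moved in different directions. Their counts stand beside 28.4% of all tested genes that rose and 32.4% that fell. Whether any list differs from these shares was not tested. Of 12 tested genes of fatty acid synthesis, a programme driven more by SREBP-1, 9 fell, none rose and 3 were not called. Their median log2 difference was -0.23 beside -0.02 over all tested genes. Elovl6, which lengthens fatty acids, was at 37.7 and 36.7 TPM with poly(I:C) against 64.7 and 59.6 TPM untreated (log2 fold change -0.72, adjusted p = 0.000121). Fasn, the fatty acid synthase, was at 81.9 and 80.8 TPM with poly(I:C) against 135 and 128 TPM untreated (log2 fold change -0.68, adjusted p = 3.61e-05). The summed level of this list was 1305 and 1284 TPM with poly(I:C) against 1743 and 1704 TPM untreated. Whether its change differs from that of the cholesterol synthesis genes was not tested.

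Genes of ester storage and of sterol transfer between membranes included several that rose. Of 5 ester genes 4 rose and 1 did not pass. Soat2, an esterifying enzyme, was at 28.3 and 28.1 TPM with poly(I:C) against 19.5 and 15.6 TPM untreated (log2 fold change 0.66, adjusted p = 0.00288). The ester hydrolase gene Nceh1 was at 16.5 and 16.3 TPM with poly(I:C) against 11.7 and 10.9 TPM untreated (log2 fold change 0.51, adjusted p = 0.00103). Of 10 transfer genes 5 rose and 2 fell, where 28.4% of all tested genes rose and 32.4% fell. Stard3, which tethers late endosomes to the endoplasmic reticulum and moves sterol there, was at 108 and 110 TPM with poly(I:C) against 53.5 and 53.4 TPM untreated (log2 fold change 1.01, adjusted p = 7.35e-06). Tmem97, a sterol-responsive protein that binds NPC1, was at 30.6 and 30.2 TPM with poly(I:C) against 48.5 and 48.9 TPM untreated (log2 fold change -0.66, adjusted p = 5.73e-05).

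Among genes of sterol sensing outside the list, changes went in both directions, as over all tested genes, of which 28.4% rose and 32.4% fell. Rxra, a dimer partner of LXR, was at 5.96 and 6.02 TPM with poly(I:C) against 12.4 and 12.1 TPM untreated (log2 fold change -0.92, adjusted p = 0.00011). The LXR-driven phospholipid enzyme gene Lpcat3 was at 36.7 and 39.9 TPM with poly(I:C) against 49.8 and 48.3 TPM untreated (log2 fold change -0.35, adjusted p = 0.00245), and of 7 tested genes of that list 1 rose and 3 fell. Of 9 genes that process SREBP or degrade sterol-regulated proteins, 4 rose and 4 fell. Rnf145, which encodes a ubiquitin ligase, was at 51.5 and 51.4 TPM with poly(I:C) against 67.1 and 73.0 TPM untreated (log2 fold change -0.44, adjusted p = 0.000709). In the isoprenoid branch 3 of 10 genes rose and 4 fell, among them the prenyl transferase subunit genes Rabggta (5.91 and 5.43 TPM with poly(I:C), 8.32 and 8.69 TPM untreated) and Fnta (58.7 and 57.4 TPM with poly(I:C), 76.5 and 80.0 TPM untreated).

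Of the 4 tested oxysterol and bile acid genes, 1 rose and 1 fell, beside 28.4% and 32.4% of all tested genes. Ch25h, the enzyme that makes 25-hydroxycholesterol and a known interferon-stimulated gene of macrophages, was listed at 0 in all 4 libraries. Gpr183, the receptor for oxysterols that guides dendritic cells in lymphoid tissue, was at 43.7 and 45.1 TPM with poly(I:C) against 21.5 and 21.3 TPM untreated (log2 fold change 1.02, adjusted p = 2.01e-05). Cyp8b1, known from bile acid synthesis in liver, was at 6.37 and 7.60 TPM with poly(I:C) against 48.0 and 51.0 TPM untreated (log2 fold change -2.66, adjusted p = 8.59e-06). Of the 8 genes of this list, 4 reached the limit of testing and 3 were listed at 0 throughout.

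**Figure D4:**
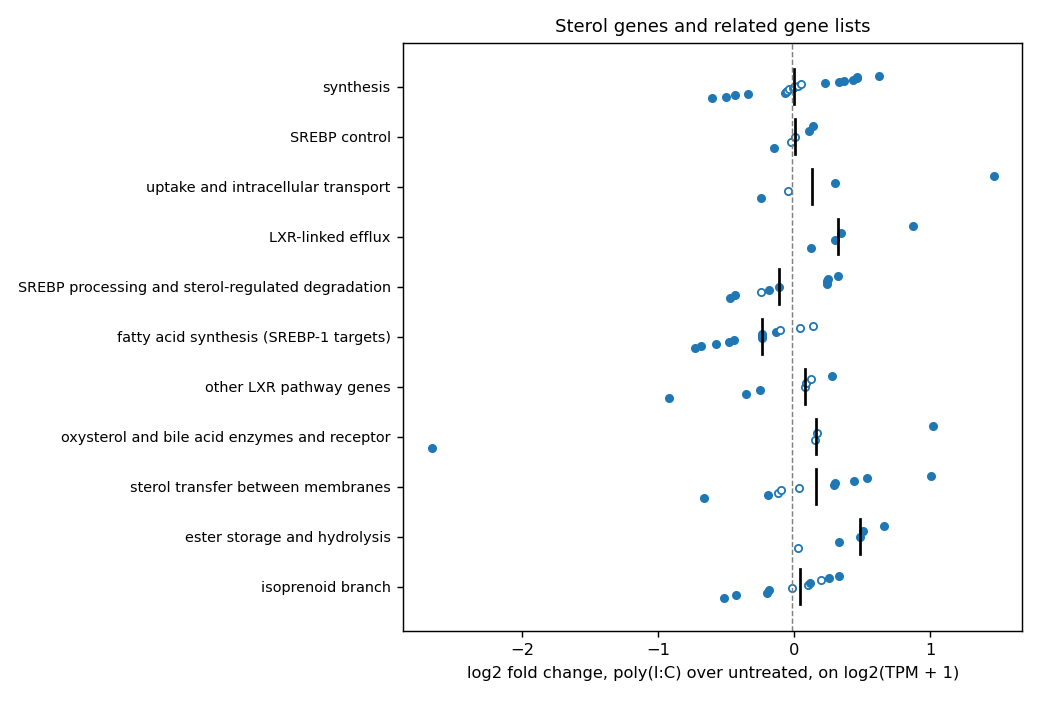
Log2 fold change, poly(I:C) over untreated, of each tested gene of the 4 groups described here and of 7 related lists; filled points passed an adjusted p under 0.05, short black lines are list medians and the dashed line is the median of all tested genes. The fatty acid list lies to the left with a median of -0.23 and the ester list to the right with 0.48.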

How the data were processed

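Polyadenylated RNA was sequenced from libraries made with a stranded kit, per the labels' protocols. Tools listed in the submitters' processing notes are kallisto 0.42.4 and bcl2fastq 2.20.0.422, and the build listed there is GRCm38; their roles are not stated. The authors deposited 1 table of RefSeq transcripts whose name says FPKM; each deposited column used sums to 1000000, as TPM does, and was taken as TPM. No source used here states whether quantification used strand, so antisense partners may share reads. The header has 5 names for 6 columns. The headings PolyIC01, PolyIC02, NT01 and NT02 give the same group however the names are read; the 2 further value columns were left out, and the number of each replicate is not settled.

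Of 107384 transcripts, 86722 (80.8%) were assigned a symbol through their accession, version removed, in RefSeq's GRCm38.p6 table, holding 91.8% to 92.2% of TPM per library. Values were summed per symbol, genes averaging 0.5 TPM or more were kept, and log2(TPM + 1) was fitted across all 12520 genes with limma 3.58.1 (R 4.3.3, intensity trend, robust moderation, 2 residual degrees of freedom), with Benjamini-Hochberg adjustment. The scale understates changes of low genes. The fit was also run on simulated data with independent noise and few changed genes. Many more genes were called in the real data, so that run does not bear on how accurate these calls are. Tables and plots were made in Python 3.11.15 (matplotlib 3.10.9, numpy 2.4.6, pandas 2.3.3).

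The genes and lists were chosen with earlier results of these data known. The genes named are the 32 of the list and, of each related list, at most 2 that passed with the largest change, with Ch25h added whatever its value; cell type markers beyond these are named for the check of the label. Alternatives were 2 other pseudocounts, 2 other filters, equal medians, limma without trend or robust moderation, curated transcripts only and leaving out each library.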

Additional observations from a re-analysis of the deposited data

How the results depend on the processing

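Each gene was refitted under 11 alternatives. Of 347 values, 304 kept their direction and their side of the threshold, 32 kept the direction but no longer passed and 11 changed sign. The 12 genes that passed throughout were Npc2, Npc1, Abcg1, Fdft1, Lss, Mvd, Msmo1, Hsd17b7, Sc5d, Ebp, Tm7sf2 and, where it could be fitted, Dhcr7. With curated transcripts only, 3 genes fell in place of 6, and 2 synthesis genes in place of 4: Mvk turned to a log2 fold change of 0.0709, Scap no longer passed and Dhcr7 dropped under the limit of testing. There, 10 genes rose in place of 15, Insig2 turned to -1.57, Srebf1 to -0.0152 (adjusted p = 0.922) and Srebf2 to 0.0111 (adjusted p = 0.754), the last 2 not called in any fit. Hmgcs1 also lost its call there, and that setting differs only in leaving out predicted transcripts. When each library was left out in turn, 10 to 12 genes rose and 4 to 6 fell, and 7 of 21 calls were lost at least once. Log2 fold changes of genes that never passed crossed 0 there: Acat2 from -0.0252 to 0.0274, Idi1 from -0.1129 to 0.0409, Sqle from -0.0170 to 0.0039 and Srebf1 from -0.1143 to 0.1324. A lone library of a group was assumed to vary like the other group. Equal medians and other pseudocounts left 15 risen and 6 fallen genes. Nr1h3 and Abca1 could not be fitted when 5 TPM was the lowest mean allowed. No paired analysis was possible because the replicate number of most columns is not settled by the header. Depth is unknown, so how far it limits low genes such as Nr1h3 and Abca1 cannot be given.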
